A study of Mus musculus with 12 samples.

Results

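The genes described here are 41 genes of DNA replication and S phase, taken from a list by their known roles: origin licensing, helicase activation, DNA polymerases, the sliding clamp with its loader and the single-strand binding protein, fragment joining, nucleotide supply, replication-coupled chromatin assembly and the entry into S phase. Of 18193 genes named on the array, 40 of the 41 had a probe set that carried their symbol alone, and Chaf1a was not analysed here. A gene with several probe sets was represented by that with the highest mean level. Tyms, the gene of thymidylate synthase, exceeded the dim level of 3.32 on 1 of 12 arrays, below the minimum of 3 arrays, and was not tested. The remaining 39 were tested together with all 15493 genes that passed this filter.

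Total RNA of whole tumours grown under the skin of female 129sv/ev mice was hybridized to 12 Affymetrix mouse expression arrays, in 4 groups of 3. Tumours were raised from 344SQ, a mouse lung adenocarcinoma line, either as an anti-PD-1 resistant derivative (Res) or as the parental line (Sen). The 4 groups were resistant tumours given anti-PD-1, resistant tumours given control IgG, parental tumours given anti-PD-1 and parental tumours given control IgG. Anti-PD-1, an antibody against an inhibitory receptor of T cells, or control IgG was injected at 10 mg/kg on days 4 and 7, and tumours were taken on day 11. Each group had 5 mice per the labels, which do not say whether an array holds 1 mouse or a pool. The p-values therefore cover the spread among arrays and no more, and the resistant line is 1 derivative. Levels are log2 expression values, differences are log2 differences with their standard error (SE), and adjusted p-values are limma's, corrected by the Benjamini-Hochberg method over all tested genes within a comparison and called under 0.05.

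Before a cell copies its DNA, the origin recognition complex, Cdc6 and Cdt1 load the Mcm2 to Mcm7 helicase onto chromatin. In S phase the helicase is activated by Cdc45 and the GINS complex, polymerase alpha-primase lays down primers, and polymerases delta and epsilon extend them on the clamp PCNA. Most of these genes are transcribed from late G1 by E2F factors once cyclin-dependent kinases have inactivated the retinoblastoma protein, so their RNA is widely used as a measure of cycling cells. In RNA from a whole tumour, fewer cycling cells and less RNA per cell cannot be told apart.

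The promoters of the list were read from the RefSeq table of assembly GRCm38.p6, in which 33 of the 41 genes had 38 promoters. In a window of 300 bases, from 250 before to 50 after the start, 13 of these 38 promoters (34.2%) held at least 1 of the E2F words TTTCCCGC, TTTCGCGC, TTTGCCGC or TTTGGCGC on either strand, against 744 of 32851 promoters of all genes (2.27%). The shorter word CCAAT, read by NF-Y, was present on either strand in 22 of 38 (57.9%), against 37.4% of all promoters. The replication promoters were richer in G and C, with a median of 60.7% against 52.7%. Among promoters with at least 53.2% G and C, the lower quartile of the replication promoters, 42.9% of 28 replication promoters and 3.67% of 15976 promoters of all genes held an E2F word. A match describes letters in the window and not a bound site. The stretches before the start are shown for 4 genes that differed between the lines and hold an E2F word there. They are limited to bases outside the gene's annotated span and run 5′ to 3′ on the gene's strand, with the E2F words in capitals.
Gins3 (chr8:95633309-95633558, plus strand): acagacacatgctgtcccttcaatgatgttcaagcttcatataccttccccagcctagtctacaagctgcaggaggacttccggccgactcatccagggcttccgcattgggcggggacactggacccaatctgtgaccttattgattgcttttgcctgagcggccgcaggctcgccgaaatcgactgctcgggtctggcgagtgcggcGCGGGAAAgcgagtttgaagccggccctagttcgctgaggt
Mcm5 (chr8:75109259-75109467, plus strand): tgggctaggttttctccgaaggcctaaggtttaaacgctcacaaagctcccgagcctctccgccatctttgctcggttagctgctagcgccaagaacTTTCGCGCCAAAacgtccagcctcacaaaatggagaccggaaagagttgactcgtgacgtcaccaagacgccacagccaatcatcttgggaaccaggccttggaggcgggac
Mcm6 (chr1:128359706-128359955, minus strand): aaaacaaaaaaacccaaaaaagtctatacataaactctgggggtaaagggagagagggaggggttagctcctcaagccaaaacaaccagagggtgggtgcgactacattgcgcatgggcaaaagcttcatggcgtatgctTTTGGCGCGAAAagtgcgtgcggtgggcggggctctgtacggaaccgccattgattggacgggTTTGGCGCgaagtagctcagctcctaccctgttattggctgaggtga
Rfc3 (chr5:151651209-151651458, minus strand): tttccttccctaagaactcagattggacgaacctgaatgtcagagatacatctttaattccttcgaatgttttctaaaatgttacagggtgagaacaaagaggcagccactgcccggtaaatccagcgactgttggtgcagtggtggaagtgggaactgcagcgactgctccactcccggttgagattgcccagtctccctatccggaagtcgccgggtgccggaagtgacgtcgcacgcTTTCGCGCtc

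Counted from the first base of the annotated gene, the word begins 41 bases before it in Gins3 and 10 bases before it in Rfc3. In Mcm6 overlapping words begin at 110 and 106, with a further one at 47. In Mcm5 a pair of overlapping words begins 112 and 108 bases before the annotated gene, while the start used for its window lies 41 bases inside the gene, so that only 209 bases are shown. These 4 genes were chosen for their small p-values between the lines with both antibodies averaged, so their differences there follow from the choice. Resistant tumours were higher by 0.59 for Gins3, 1.32 for Mcm5, 0.68 for Mcm6 and 0.41 for Rfc3 (limma adjusted p between 7.07e-05 and 0.00132). Of the other genes with an E2F word in the window, Cdc6, Cdt1, Lig1, Orc1, Pola1 and Pold1 were called higher in this average. Mcm3, Mcm7 and Uhrf1, which also hold one, were not called.

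Some properties of the arrays bear on every comparison. Parental anti-PD-1 replicate 3 and parental IgG replicate 1 stood apart on the first principal components, which held 48.5% and 21.6% of the variance. Values without parental anti-PD-1 replicate 3 are given below where leaving it out ended a call of a replication gene under anti-PD-1 or moved a called value there by over 1.5 times. The calls that leaving it out added under IgG are also given. That array had the highest mean levels of the lists of muscle genes (11.26 over 15 genes), fibroblast genes (10.64 over 10), myeloid genes (9.62 over 12) and endothelial genes (7.12 over 10), against 6.26 to 10.61, 9.18 to 10.40, 7.96 to 9.17 and 5.33 to 6.79 on the other arrays. None of these markers was below the dim level on all arrays. The list of T and NK cell genes, of which 11 of 13 were found, had mean levels of 4.29 to 4.85 on resistant arrays and 4.42 to 5.98 on parental arrays. The list of 10 epithelial genes, markers of the tumour cells, had mean levels of 8.75 to 8.91 on resistant arrays and 8.67 to 9.54 on parental arrays. With both antibodies averaged, 2 of these 10 were called higher and 3 lower in resistant tumours, with a median difference of -0.14. In this list Nkx2-1 (3.78 to 4.16) and Sftpc (4.25 to 5.08) were low on all arrays, beside Krt8 at 13.06 to 13.52. The list is therefore a coarse measure of tumour cell content. Signals at the 3' end exceeded those at the 5' end by 0.035 ± 0.052 for Gapdh on the resistant arrays and by 0.263 ± 0.096 on the parental arrays (SD, n = 6 each; two-sided exact permutation p = 0.00216, the lowest this design allows). For actin the excess was 0.48 ± 0.08 on the resistant and 0.75 ± 0.11 on the parental arrays (exact permutation p = 0.00216). The part of tissue content and of RNA ends in the differences between the lines was not tested. Fits with tissue content as a covariate are given below. They cannot tell it apart from other properties of parental anti-PD-1 replicate 3, the highest array for those lists.

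**Figure D1:**
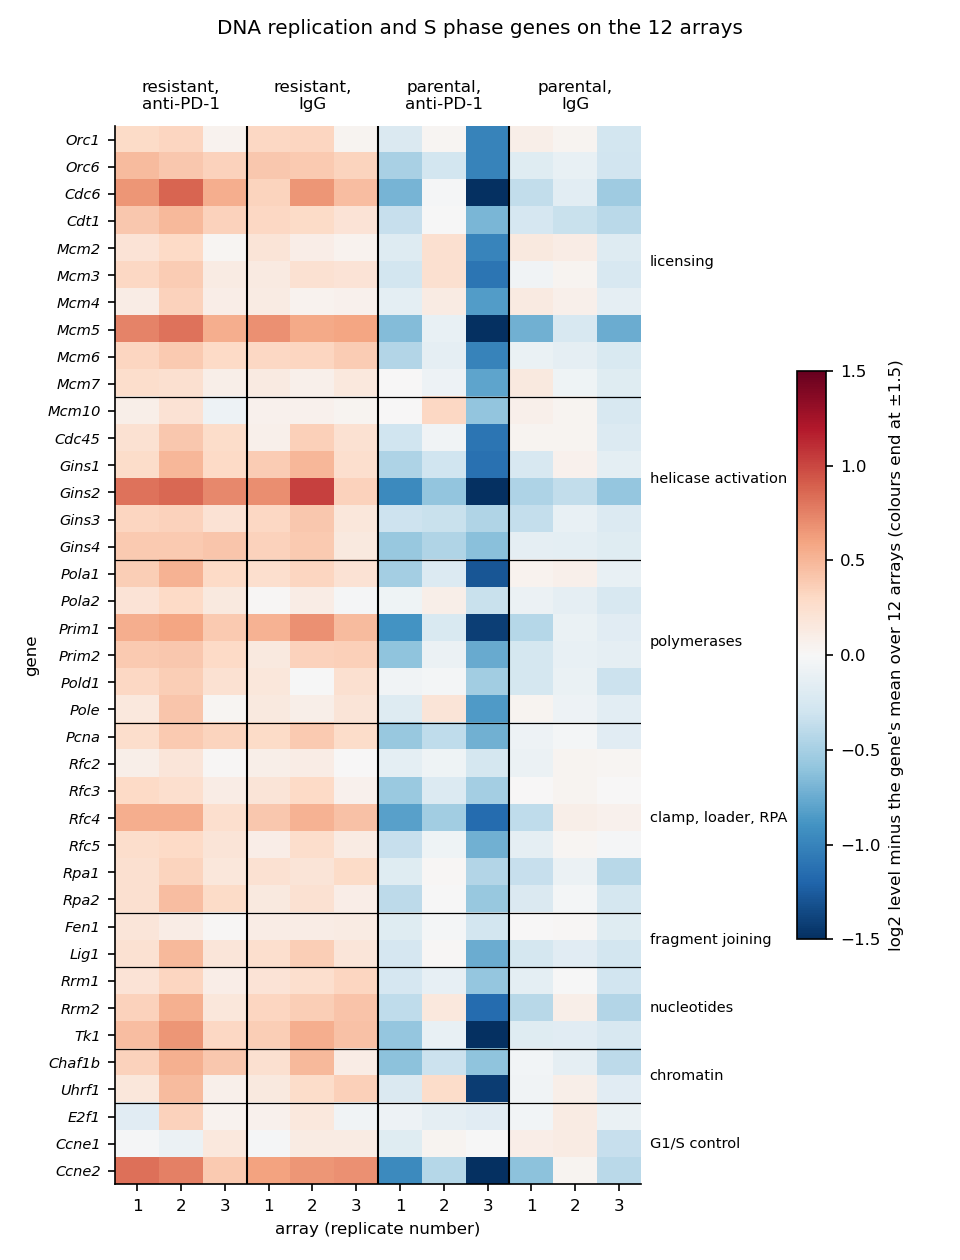
Level of each of the 39 tested genes on the 12 arrays, as the log2 level minus the gene's own mean, with rows by role and columns by group and replicate number; colours end at differences of 1.5. The 6 resistant arrays lie mostly above each gene's mean, and parental anti-PD-1 replicate 3 is the lowest array for 35 of the 39 genes.

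Under control IgG, resistant tumours were set against parental tumours to see the lines without treatment. Replication genes were higher in resistant tumours: 12 of 39 were called higher and none lower, against a background of 8.93% of all tested genes called higher and 7.31% lower. The called genes were Orc6, Cdt1, Mcm5, Gins2, Gins3, Gins4, Prim1, Pcna, Rpa1, Rrm1, Chaf1b and Ccne2. All 12 arrays share 1 estimate of the spread for each gene, so an array outside a comparison can change its calls. Without parental anti-PD-1 replicate 3 the same differences gave 21 of 39 called under IgG. Those added were Cdc6, Mcm6, Gins1, Prim2, Pold1, Rfc4, Lig1, Rrm2 and Tk1 (limma adjusted p between 0.0035 and 0.0268). Without parental IgG replicate 3, in contrast, 3 were called. Over all tested genes, leaving out 1 array gave 1273 to 3483 calls in either direction under IgG, beside 2517 on all arrays. The shares of 8.93% and 7.31% are therefore not the background of these fits. All 39 differences were above 0, between 0.06 for Mcm4 and 1.18 for Mcm5 with a median of 0.40, while 60.7% of all tested genes were above 0 with a median of 0.07. For 31 of the 39 all 3 resistant arrays lay above all 3 parental arrays, which was so for 23.6% of all tested genes.

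The comparison of resistant with parental tumours given anti-PD-1 shares no array with that under IgG, but its p-values rest on the same estimate of the spread. Here 29 of 39 replication genes were called higher and none lower, against 21.6% of all tested genes called higher and 11.9% lower. All 39 differences were again above 0 (59.1% of all tested genes), with a median of 0.66 (0.06 for Ccne1 to 1.82 for Gins2) beside 0.07 over all tested genes. In 31 of 39 the resistant arrays all exceeded the parental ones (29.9% of all tested genes). Without parental anti-PD-1 replicate 3, 25 of 39 were called, the median was 0.48, and 38 differences stayed above 0, with Mcm10 at -0.08. The calls of Fen1, Pola2, Rfc2 and Rrm2 were lost without that array, at 0.21, 0.20, 0.20 and 0.46 (limma adjusted p = 0.103, 0.11, 0.0882 and 0.0955). Over all tested genes, leaving out 1 array gave 3826 to 5366 calls in either direction under anti-PD-1, beside 5186 on all arrays. Levels of muscle genes moved with this comparison. All 15 muscle genes had differences below 0 under anti-PD-1, with a median of -2.30, of which 2 were called lower and 10 had no overlap between the lines. Under IgG 13 of the 15 were above 0, with a median of 0.63 and none called. Other tissue lists moved with the line too. Endothelial genes had medians of -0.32 under anti-PD-1 and 0.72 under IgG, where 9 of 10 had no overlap (23.6% of all tested genes). Medians were -0.26 and 0.795 for fibroblast genes and -0.42 and 0.21 for myeloid genes. With both antibodies averaged, 6 of 11 T and NK cell genes were called lower (54.5%, against 15% of all tested genes). With the muscle level as a covariate 21 of 39 replication genes were called under anti-PD-1, with a median of 0.65, and Cdc45, Fen1, Lig1, Pola2, Pold1, Rfc2, Rpa1 and Rrm2 were no longer called. Averaged over both antibodies, 30 of 39 were called higher and none lower (background 25.2% higher, 15% lower), with a median of 0.53. For 27 of the 39 genes all 6 resistant arrays exceeded all 6 parental arrays, against 11.2% of all tested genes.

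**Figure D2:**
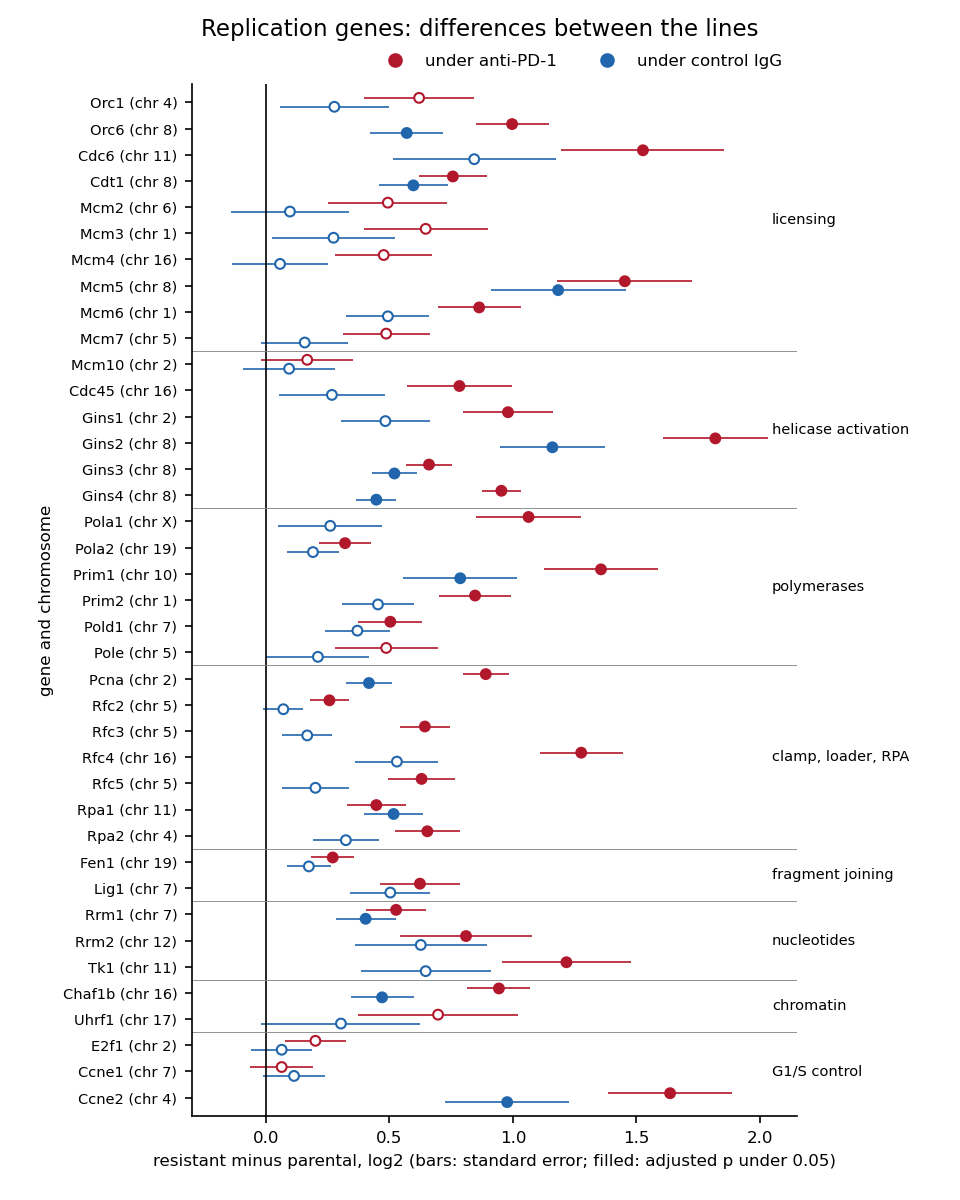
Difference between resistant and parental tumours for each of the 39 genes, in log2 units with standard errors as bars, under anti-PD-1 (red) and under control IgG (blue); filled points have a limma adjusted p under 0.05. All points lie above 0, from 0.06 to 1.82, and 12 are filled under IgG and 29 under anti-PD-1.

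Among the 10 licensing genes, 5 were called higher under anti-PD-1 and 3 under IgG, against 21.6% and 8.93% of all tested genes. The same shares stand beside the counts of the other roles, whose few genes describe a role and do not test it. Orc6, a subunit of the origin recognition complex, stood at 8.19, 8.11 and 8.05 in resistant tumours under anti-PD-1, against 7.22, 7.43 and 6.71 in parental tumours under anti-PD-1. Under IgG its levels were 8.12, 8.10 and 8.04 in resistant tumours, against 7.53, 7.60 and 7.42 in parental tumours. The lines did not overlap under either antibody, with differences of 1.00 (SE 0.15, limma adjusted p = 0.000691) and 0.57 (SE 0.15, adjusted p = 0.0256). Orc1, the largest subunit of the same complex, differed by 0.62 under anti-PD-1 (adjusted p = 0.0517) and 0.28 under IgG (adjusted p = 0.414), and was called only with both antibodies averaged (0.45, adjusted p = 0.0411). Another probe set of Orc1 gave a difference of -0.11 in that average.

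Cdc6, the ATPase that joins the origin complex to load the helicase, was at 6.57, 6.78 and 6.45 in resistant tumours under anti-PD-1, against 5.21, 5.88 and 4.13 in parental tumours under anti-PD-1. Its difference was 1.53 (SE 0.33, limma adjusted p = 0.00526), and 0.84 under IgG (SE 0.33, adjusted p = 0.103). The parental arrays under anti-PD-1 were widely spread (SD 0.88, n = 3), and the groups were apart under both antibodies. Cdt1, which brings the helicase to the origin and is degraded once S phase starts, was higher by 0.76 under anti-PD-1 (SE 0.14, adjusted p = 0.00223) and by 0.60 under IgG (SE 0.14, adjusted p = 0.0164).

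The 6 subunits of the Mcm2 to Mcm7 helicase act as 1 ring, and their differences varied with the subunit and with the probe set. Mcm5 had levels of 9.83, 9.90 and 9.63 in resistant tumours under anti-PD-1, against 8.44, 8.97 and 7.59 in parental tumours under anti-PD-1. Under IgG it had 9.77, 9.66 and 9.68 in resistant tumours, against 8.37, 8.85 and 8.34 in parental tumours. Its resistant arrays all exceeded its parental arrays, by 1.45 under anti-PD-1 (SE 0.27, limma adjusted p = 0.00251) and 1.18 under IgG (SE 0.27, adjusted p = 0.0159). The probe set used for Mcm5 is of a type whose probes may match other transcripts, and its other probe sets gave differences of 0.85 and 1.99 under anti-PD-1 and of 0.56 and 1.39 under IgG. Mcm6 was called under anti-PD-1 (0.86, SE 0.17, adjusted p = 0.00294) and not under IgG (0.49, adjusted p = 0.0674).

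Mcm2 lay at 8.86, 8.96 and 8.69 in resistant tumours under anti-PD-1, against 8.46, 8.90 and 7.67 in parental tumours under anti-PD-1. Under IgG its levels were 8.85, 8.76 and 8.71 in resistant tumours, against 8.80, 8.77 and 8.46 in parental tumours. The lines overlapped under both antibodies on this probe set, but not on the other probe set of Mcm2, which gave 0.87 under anti-PD-1 and 0.28 under IgG. The difference of Mcm2 on the probe set used was 0.10 under IgG (95% interval -0.43 to 0.63, adjusted p = 0.811), and that of Mcm4 was 0.06 (-0.37 to 0.49, adjusted p = 0.867). Mcm3, Mcm4, Mcm7 and Mcm2 were not called in either comparison, with differences of 0.48 to 0.65 under anti-PD-1 and 0.06 to 0.27 under IgG. Without parental anti-PD-1 replicate 3 their differences under anti-PD-1 were 0.16 for Mcm2, 0.29 for Mcm3, 0.20 for Mcm4 and 0.24 for Mcm7. Further probe sets of Mcm3 ran from 0.11 to 1.13 under anti-PD-1 and from 0.26 to 0.61 under IgG, those of Mcm7 from 0.50 to 0.89 and from 0.18 to 0.30, and that of Mcm4 gave 0.42 and 0.10. The intervals of Mcm2 and Mcm4 under IgG reach 0.63 and 0.49, and that of Mcm5 begins at 0.58; differences between subunits were not tested, and they depend on the probe set chosen.

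**Figure D3:**
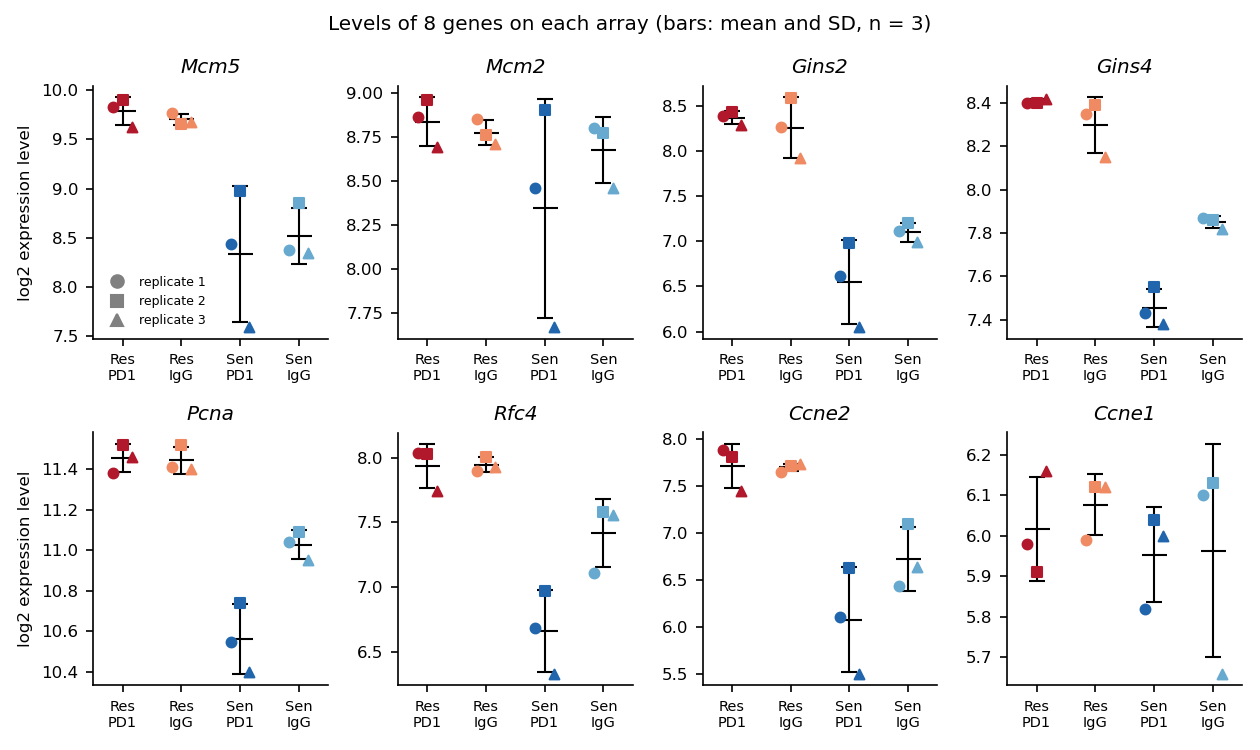
Log2 level of 8 genes on each array by group (Res for resistant, Sen for parental, PD1 for anti-PD-1), with horizontal bars for the mean and whiskers for the SD of 3 arrays and symbols for the replicate number. Mcm5, Gins2, Gins4, Pcna, Rfc4 and Ccne2 have all resistant arrays above all parental arrays, while Mcm2 and Ccne1, on the probe sets used, overlap between the lines; axes do not start at 0.

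Of the 6 genes of helicase activation, 5 were called higher under anti-PD-1 and 3 under IgG (21.6% and 8.93% of all tested genes). Gins2, a subunit of the GINS complex, had 8.39, 8.43 and 8.29 in resistant tumours under anti-PD-1, against 6.62, 6.98 and 6.05 in parental tumours under anti-PD-1. Under IgG its levels were 8.27, 8.59 and 7.92 in resistant tumours, against 7.11, 7.20 and 6.99 in parental tumours. The lines were far apart under both antibodies, with differences of 1.82 (SE 0.21, limma adjusted p = 0.000216) and 1.16 (SE 0.21, adjusted p = 0.00559), and a further probe set gave 2.26 and 1.48. Without parental anti-PD-1 replicate 3 the difference under anti-PD-1 was 1.57 (adjusted p = 0.000388).

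The other GINS subunits also had positive differences. Gins4 was at 8.40, 8.40 and 8.42 in resistant tumours under anti-PD-1, against 7.43, 7.55 and 7.38 in parental tumours under anti-PD-1. Under IgG it stood at 8.35, 8.39 and 8.15 in resistant tumours, against 7.87, 7.86 and 7.82 in parental tumours. These arrays lay close together within groups, and the differences were 0.95 (SE 0.08, limma adjusted p = 5.71e-05) and 0.45 (SE 0.08, adjusted p = 0.00497). Gins3 was higher by 0.66 under anti-PD-1 (adjusted p = 0.000495) and by 0.52 under IgG (adjusted p = 0.00432). Gins1 passed under anti-PD-1 only (0.98, adjusted p = 0.00225), with 0.48 under IgG (adjusted p = 0.0901). Cdc45, the partner of GINS on the helicase, likewise passed under anti-PD-1 (0.78, adjusted p = 0.0169) and stood at 0.27 under IgG (adjusted p = 0.415), but another of its probe sets, with a mean level of 5.21 against 6.30, gave -0.17 and -0.07. Without parental anti-PD-1 replicate 3 Cdc45 stood at 0.475 under anti-PD-1 (adjusted p = 0.0156). Mcm10, which helps to start the activated helicase, was not called, at 0.17 under anti-PD-1 and 0.09 under IgG. Gins2, Gins3 and Gins4 were the only 3 of the 12 genes called under IgG that stayed called whichever of the 12 arrays was left out.

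Of the 6 polymerase and primase genes, 5 were called higher under anti-PD-1 and 1 under IgG (21.6% and 8.93% of all tested genes). The single gene under IgG is too few to set apart from that share. Prim1, the catalytic subunit of primase, had 8.31, 8.36 and 8.16 in resistant tumours under anti-PD-1, against 6.87, 7.54 and 6.35 in parental tumours under anti-PD-1. Under IgG its levels were 8.28, 8.45 and 8.24 in resistant tumours, against 7.34, 7.67 and 7.60 in parental tumours. Groups did not overlap, with differences of 1.36 (SE 0.23, limma adjusted p = 0.00144) and 0.79 (SE 0.23, adjusted p = 0.041). Prim2, the large primase subunit, differed by 0.85 (adjusted p = 0.00151) and 0.45 (adjusted p = 0.0558), on a probe set with a mean level of 6.82. A further probe set of Prim2 at a mean of 6.42 gave 1.49 and 0.92 with no overlap of the lines, and a dimmer one at 4.50 gave -0.06 and -0.04. Pola1, the catalytic subunit of polymerase alpha, differed by 1.06 under anti-PD-1 (adjusted p = 0.00333) and 0.26 under IgG (adjusted p = 0.42).

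Smaller values came from the replicative polymerases. Pold1, the catalytic subunit of polymerase delta, differed by 0.50 under anti-PD-1 (adjusted p = 0.013) and 0.37 under IgG (adjusted p = 0.0753). Pole, that of polymerase epsilon, was not called in either, at 0.49 (adjusted p = 0.095) and 0.21 (adjusted p = 0.513). Pola2, the accessory subunit of polymerase alpha, was called under anti-PD-1 at 0.32 (adjusted p = 0.0385) and stood at 0.20 without parental anti-PD-1 replicate 3 (adjusted p = 0.11). Its other probe sets, with mean levels of 3.57 and 3.47, were close to the dim level of 3.32 and give no direction.

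All 7 genes of the clamp, its loader and the single-strand binding protein were called higher under anti-PD-1 (21.6% of all tested genes). Under IgG 2 of them, Pcna and Rpa1, were called higher (8.93% of all tested genes). Pcna, the sliding clamp that tethers polymerases to DNA, was at 11.38, 11.52 and 11.46 in resistant tumours under anti-PD-1, against 10.55, 10.74 and 10.40 in parental tumours under anti-PD-1. Under IgG it was at 11.41, 11.52 and 11.40 in resistant tumours, against 11.04, 11.09 and 10.95 in parental tumours. Each group was tight and the lines did not overlap, with differences of 0.89 (SE 0.09, limma adjusted p = 0.000134) and 0.42 (SE 0.09, adjusted p = 0.0137). Among the loader genes Rfc4 was higher by 1.28 under anti-PD-1 (SE 0.17, adjusted p = 0.00038) and stood at 0.53 under IgG (adjusted p = 0.0545). Rfc3, Rfc5 and Rfc2 were higher under anti-PD-1 by 0.64, 0.63 and 0.26, and stood at 0.17, 0.20 and 0.07 under IgG without passing. Rfc2 was not called without parental anti-PD-1 replicate 3 (0.20, adjusted p = 0.0882). Rpa1 and Rpa2 encode subunits of the protein that coats single-stranded DNA. Rpa1 was higher by 0.45 under anti-PD-1 (adjusted p = 0.0156) and 0.52 under IgG (adjusted p = 0.0161), and Rpa2 by 0.65 under anti-PD-1 (adjusted p = 0.00373), with 0.32 under IgG (adjusted p = 0.118). A further probe set of Rpa2 gave 1.34 and 0.64.

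Genes of fragment joining and of nucleotide supply were called higher under anti-PD-1 in every tested case (21.6% of all tested genes). Of these, Fen1 and Rrm2 were not called once parental anti-PD-1 replicate 3 was left out. Lig1, the ligase that seals Okazaki fragments, was higher by 0.62 (adjusted p = 0.0133) and Fen1, the nuclease that trims them, by 0.27 (adjusted p = 0.0355), and neither passed under IgG (0.50 and 0.17). Without that array Lig1 stood at 0.41 (adjusted p = 0.0226) and Fen1 at 0.21 (adjusted p = 0.103), and the other probe set of Fen1 gave 0.79 and 0.20 on all arrays. Rrm1 and Rrm2 form ribonucleotide reductase, which makes the deoxynucleotides, and Tk1 salvages thymidine. Tk1 stood at 8.47, 8.67 and 8.32 in resistant tumours under anti-PD-1, against 7.42, 7.89 and 6.50 in parental tumours under anti-PD-1, a difference of 1.22 (SE 0.26, limma adjusted p = 0.00519) that became 0.83 (adjusted p = 0.00226) without parental anti-PD-1 replicate 3. Rrm2 was higher by 0.81 (adjusted p = 0.0374) and Rrm1 by 0.53 (adjusted p = 0.0072) under anti-PD-1, and further probe sets of Rrm1 gave 1.16 (mean level 8.04) and -0.16 (mean level 4.38). Without that parental array Rrm2 stood at 0.46 (adjusted p = 0.0955). On all arrays the other probe sets of Rrm2 gave 1.06 and 1.62 under anti-PD-1 and 0.64 and 0.84 under IgG, with no overlap of the lines. Under IgG, Rrm1 passed at 0.40 (adjusted p = 0.0445), while Tk1 at 0.65 and Rrm2 at 0.63 did not (adjusted p = 0.114 and 0.13). Both passed at the same differences without parental anti-PD-1 replicate 3 (limma adjusted p = 0.00636 and 0.0268).

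In the chromatin group, Chaf1b, a subunit of the chromatin assembly factor that places histones behind the fork, was higher by 0.94 under anti-PD-1 (SE 0.13, adjusted p = 0.000436) and 0.47 under IgG (SE 0.13, adjusted p = 0.0308). Uhrf1, which recruits the maintenance DNA methyltransferase to newly copied DNA, was not called, at 0.70 (adjusted p = 0.119) and 0.30 (adjusted p = 0.543). Its parental arrays under anti-PD-1 ran from 7.31 to 9.0. The other probe set of Uhrf1 gave 0.95 and 0.71, with all resistant arrays above all parental arrays under each antibody.

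Of the 3 genes of S phase entry, 1 was called higher, Ccne2, under both antibodies. That is too few to set apart from the 21.6% and 8.93% of all tested genes. Ccne2, which encodes cyclin E2, had 7.88, 7.81 and 7.44 in resistant tumours under anti-PD-1, against 6.10, 6.62 and 5.50 in parental tumours under anti-PD-1. Under IgG it had 7.65, 7.71 and 7.73 in resistant tumours, against 6.43, 7.09 and 6.64 in parental tumours. The lines were separate under both antibodies, at 1.64 (SE 0.25, limma adjusted p = 0.000809) and 0.98 (SE 0.25, adjusted p = 0.0242). For Ccne1, which encodes cyclin E1, levels were 5.98, 5.91 and 6.16 in resistant tumours under anti-PD-1 and 5.82, 6.04 and 6.0 in parental tumours under anti-PD-1. The groups overlapped, with differences of 0.06 (95% interval -0.22 to 0.34) and 0.11 under IgG (-0.17 to 0.39). The probe set used for Ccne1 is, as for Mcm5, Pold1, Fen1 and Rrm2, of a type that may match other transcripts. Its other probe set had 5.65, 5.87 and 5.71 in resistant tumours under anti-PD-1, against 4.98, 5.36 and 4.96 in parental tumours under anti-PD-1. There the groups did not overlap, with a difference of 0.64, and the difference under IgG was 0.17, so the value of Ccne1 under anti-PD-1 depends on the probe set. E2f1, a transcription factor that drives many genes of the list, differed by 0.20 (-0.07 to 0.47) under anti-PD-1 and 0.06 (-0.21 to 0.33) under IgG, neither called.

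Position on the chromosomes was set beside these values. Of the 39 genes, 6 lie on chromosome 8 (GRCm38.p6): Gins4 (chr8:23226610-23237668), Mcm5 (chr8:75109468-75128439), Orc6 (chr8:85299632-85308279), Gins3 (chr8:95633559-95645059), Gins2 (chr8:120581266-120589075) and Cdt1 (chr8:122568015-122573130). All 6 were called higher under both antibodies, with medians of 0.98 under anti-PD-1 and 0.58 under IgG. The 33 on other chromosomes had medians of 0.64 and 0.30, with 23 and 6 called. The other 810 tested genes of chromosome 8 had a median of 0.26 under anti-PD-1, with 44.8% called higher, and of 0.25 under IgG, with 27.7% called higher, above the 21.6% and 8.93% of all tested genes. Chromosome 4 holds Ccne2, which was called under IgG, and Orc1 and Rpa2, which were not. Its other 936 tested genes had medians of 0.14 under anti-PD-1, with 30.9% called higher, and 0.15 under IgG, with 16.5% called higher. Of the 12 genes called under IgG, 7 thus sat on chromosomes 4 and 8, whose other genes were also more often called higher, and DNA copy number was not measured. With the median of the other genes of its chromosome subtracted from each gene, the median difference of the list was 0.59 under anti-PD-1, with all 39 above 0, and 0.27 under IgG, with 38 above 0. A median over a whole chromosome cannot account for a change of part of it, so the part of copy number was not tested.

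**Figure D4:**
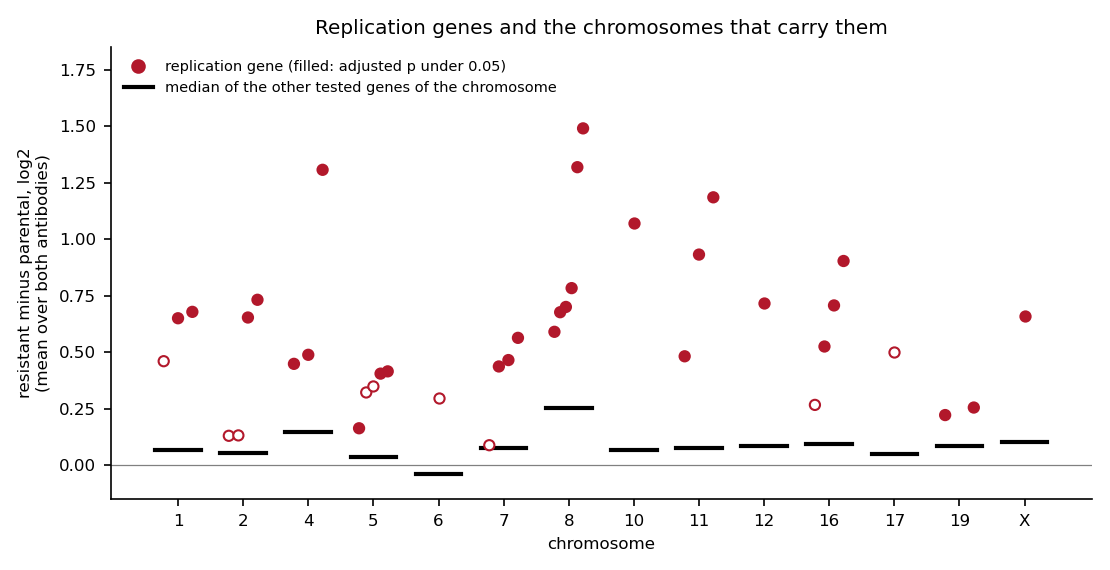
Difference between resistant and parental tumours averaged over both antibodies, in log2 units, for each of the 39 genes by chromosome, with black bars for the median of the other tested genes of that chromosome and filled points for a limma adjusted p under 0.05. The 6 genes on chromosome 8 lie between 0.59 and 1.49, above that chromosome's median of 0.25.

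Anti-PD-1 and IgG were compared within each line to ask what the treatment changed. In parental tumours 4 of 39 replication genes were called lower under anti-PD-1 and none higher, against 2.27% of all tested genes called lower and 1.23% higher. These were Gins4, Pcna, Rfc3 and Rfc4. Of the 39 differences 36 were below 0, with a median of -0.31 (-0.76 for Rfc4 to 0.08 for Rpa1), while 51.1% of all tested genes were below 0 with a median of -0.01. In 7 of the 39 all anti-PD-1 arrays lay below all IgG arrays, against 13.4% of all tested genes.

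Rfc4, a subunit of the clamp loader, had 6.68, 6.97 and 6.33 in parental tumours under anti-PD-1, against 7.11, 7.58 and 7.56 in parental tumours given IgG, a difference of -0.76 (SE 0.17, limma adjusted p = 0.0393). Rfc3, of the same loader, had 6.63, 6.97 and 6.67 under anti-PD-1, against 7.19, 7.22 and 7.19 under IgG, a difference of -0.44 (SE 0.10, adjusted p = 0.0431). Pcna and Gins4, with the array values given above, differed by -0.46 (SE 0.09, adjusted p = 0.0329) and -0.40 (SE 0.08, adjusted p = 0.0335). In all 4 genes the anti-PD-1 arrays lay below the IgG arrays. Without parental anti-PD-1 replicate 3 their differences were -0.59, -0.40, -0.38 and -0.36, and none passed (adjusted p = 0.101, 0.113, 0.0753 and 0.0821). Pola1, which differed by -0.67 (adjusted p = 0.101), and Ccne2, at -0.65 (adjusted p = 0.164), had large differences that did not pass.

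Much of the median difference in parental tumours came with 1 array. Parental anti-PD-1 replicate 3 was the lowest of the 12 arrays for 35 of the 39 genes, against 24.1% of all tested genes, and it was also the array with the highest muscle, fibroblast, myeloid and endothelial levels. Without it the median over the 39 genes was -0.05, with 27 below 0 and 12 above 0, and 0 genes were called. The median SD of the replication genes between arrays of 1 group was 0.11 for anti-PD-1 and 0.07 for IgG in the resistant line, and 0.39 for anti-PD-1 and 0.13 for IgG in the parental line. Over all tested genes these SDs were 0.10, 0.12, 0.16 and 0.12. With the mean level of the fibroblast, endothelial and myeloid lists as a covariate, an alternative added after the data were seen, the median was -0.08 and 0 genes were called. The same fit left the comparison of the lines with medians of 0.61 under anti-PD-1 and 0.58 under IgG.

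**Figure D5:**
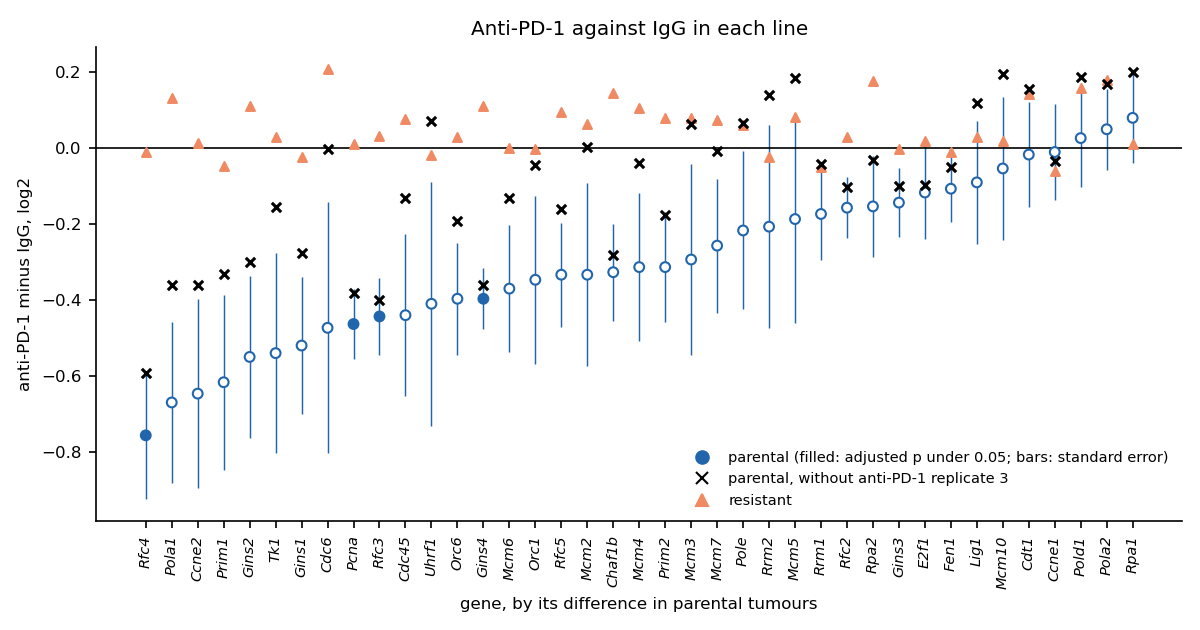
Anti-PD-1 minus IgG for each of the 39 genes in parental tumours, in log2 units with standard errors as bars (blue, filled for a limma adjusted p under 0.05), in parental tumours without anti-PD-1 replicate 3 (crosses) and in resistant tumours (orange triangles). Parental values reach -0.76 and most crosses lie nearer to 0, while resistant values stay between -0.06 and 0.21.

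In resistant tumours the replication genes had differences near 0 between the antibodies. The limma fit called 0 of 39 in either direction (background 0% of all tested genes), and 0 of the 39 had an unadjusted p under 0.05, against 4.76% of all tested genes. The median difference was 0.03, with a range of -0.06 for Ccne1 to 0.21 for Cdc6. Pcna, for example, differed by 0.01 (95% interval -0.20 to 0.22), Gins2 by 0.11 (-0.36 to 0.58) and Mcm6 by 0.00 (-0.37 to 0.37). Over the list the interval bounds ran from -0.73 for Uhrf1 to 0.94 for Cdc6, so differences of that size in single genes are within the error. The interaction, which tests whether the difference between anti-PD-1 and IgG was the same in both lines, called 0 of 39 (background 0%), with 7 genes at an unadjusted p under 0.05 against 17.5% of all tested genes. Those were Gins4, Pcna, Rfc3, Rfc4, Pola1, Chaf1b and Rfc5, with the smallest adjusted p for Gins4 (0.51, SE 0.11, adjusted p = 0.132). A difference between the lines in their response to anti-PD-1 was therefore not shown for any gene of the list.

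Other genes of the pathway were read from lists drawn up by function, with earlier results of these data known. Their counts stand beside 21.6% of all tested genes called higher and 11.9% lower under anti-PD-1, and 8.93% higher and 7.31% lower under IgG. Of 35 further replication genes, 24 (68.6%) were called higher and 0 lower in resistant tumours under anti-PD-1, and 7 (20%) higher and 0 lower under IgG. Pole2, the second subunit of polymerase epsilon, stood at 7.66, 7.81 and 7.70 in resistant tumours under anti-PD-1, against 6.43, 6.57 and 6.03 in parental tumours under anti-PD-1. It was higher by 1.38 (limma adjusted p = 0.00015), and by 0.77 under IgG (adjusted p = 0.00732). Orc3, a further origin subunit, was higher by 0.62 and 0.36, and Rnaseh2b, a subunit of the enzyme that removes ribonucleotides from DNA, by 0.75 and 0.40. In parental tumours Orc5, Rpa3 and Rnaseh2c were called lower under anti-PD-1, at -0.54, -0.80 and -0.44 (adjusted p between 0.0255 and 0.0441), and the other 32 of the 35 were not called. Without parental anti-PD-1 replicate 3, a fit of these lists added after the data were seen, they stood at -0.43, -0.62 and -0.36 and were not called (adjusted p = 0.0529, 0.0529 and 0.118). In that fit 21 of the 35 were called higher in resistant tumours than in parental ones with anti-PD-1, and 11 with IgG. The shares of all tested genes given above belong to the fit on all arrays.

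Among 13 genes of chromatin assembly, 6 (46.2%, against 21.6% of all tested genes) were higher under anti-PD-1 and 3 (23.1%, against 8.93%) under IgG, with none lower. The histone chaperone genes Asf1a, Asf1b and Nasp were higher under both, by 1.01, 1.15 and 1.04 under anti-PD-1 and by 0.47, 0.80 and 0.57 under IgG. Of 14 genes of nucleotide supply, 7 (50%, against 21.6%) were higher and 1 lower under anti-PD-1. Under IgG 1 of these 14 was higher and 0 lower, a share of 7.14% that lies near the 8.93% of all tested genes. Dut, the enzyme that clears dUTP, was higher by 1.21 under anti-PD-1 (adjusted p = 0.00387). Samhd1, which breaks deoxynucleotides down and is abundant in myeloid cells, was called lower in resistant tumours with both antibodies averaged (-1.49, adjusted p = 0.00653). Of 17 genes of fork protection, checkpoint and repair, 12 (70.6%, against 21.6%) were higher under anti-PD-1 and 3 (17.6%, against 8.93%) under IgG, with none lower. Wee1, a kinase that restrains Cdk1, was higher by 0.67 and 0.57, and the checkpoint kinase gene Chek1 by 1.16 under anti-PD-1 (adjusted p = 0.00483). When parental anti-PD-1 replicate 3 was left out, 6 of the 13, 5 of the 14 and 8 of the 17 genes were called higher under anti-PD-1. Under IgG that fit called 4 of the 13, 3 of the 14 and 4 of the 17 higher, and 1 of the 14 lower. The shares of all tested genes in that fit are not given here.

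Genes of mitosis act after S phase. Of 27 tested, 22 (81.5%, against 21.6% of all tested genes) were higher under anti-PD-1 and none lower. Under IgG 2 were higher and none lower, a share of 7.41% that is not above the 8.93% of all tested genes. All 27 differences were above 0 under both antibodies, with medians of 0.88 and 0.61. Without parental anti-PD-1 replicate 3 the counts called higher were 15 of 27 under anti-PD-1 and 21 of 27 under IgG. The count under IgG thus depends on an array outside that comparison, through the shared estimate of the spread. The calls over all tested genes also change with the array left out, so the shares above are not the background of these counts. Ndc80, a kinetochore gene, was higher by 1.13 (adjusted p = 0.00112) and 0.84 (adjusted p = 0.0119), and Cdk1, the kinase of mitotic entry, by 0.98 under anti-PD-1 (adjusted p = 0.00413). Mki67, the proliferation marker, stood at 10.05, 10.32 and 9.82 in resistant tumours under anti-PD-1, against 9.38, 9.88 and 9.0 in parental tumours under anti-PD-1. The groups overlapped, and Mki67 passed only when both antibodies were averaged (0.63, adjusted p = 0.0116). The median of 0.71 for mitosis genes averaged over both antibodies stands beside 0.53 for the replication genes and 0.08 for all tested genes, and the difference between the lists was not tested.

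The 32 genes that control the passage from G1 to S differed in both directions. In resistant tumours 9 (28.1%) were called higher and 5 (15.6%) lower under anti-PD-1, near the 21.6% and 11.9% of all tested genes. Under IgG 6 (18.8%) were higher and 4 (12.5%) lower, against 8.93% and 7.31%. Cdkn2a and Cdkn2b, inhibitors of the kinases that act with D cyclins, were called lower, at -3.47 and -2.75 under anti-PD-1 and -3.73 and -3.34 under IgG. Cdkn2a stood at 3.91, 3.97 and 3.49 in resistant tumours under anti-PD-1, against 7.57, 7.09 and 7.13 in parental tumours under anti-PD-1. Cdkn2c, of the same inhibitor family, was in contrast higher by 1.02 and 1.03 (limma adjusted p = 0.00015 and 0.000316). Ccnd2, the gene of cyclin D2, had 7.98, 7.81 and 8.14 in resistant tumours under anti-PD-1, against 9.88, 9.91 and 9.50 in parental tumours under anti-PD-1, a difference of -1.79 (adjusted p = 2.92e-05). The cyclin D1 gene Ccnd1 was not called (-0.18 and -0.39), nor was Myc (-0.20 and -0.16). Rb1, the retinoblastoma gene, was higher under IgG (0.59, adjusted p = 0.00987) and not called under anti-PD-1 (0.23). Cdkn1a, the p21 inhibitor gene, was lower in resistant tumours under anti-PD-1 (-0.97, adjusted p = 0.0117), with levels of 7.66, 8.01 and 7.93 against 8.22, 8.89 and 9.39 in parental tumours, and was not called under IgG (0.27).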

How the data were processed

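The deposited table holds log2 values for 45101 probe sets on 12 Affymetrix mouse arrays, running from 1.62 to 13.88; the log2 scale was read from the deposited values, and the background correction, normalization and summarization are not given in the sources used here. RNA was extracted, biotin-labelled and hybridized per the labels' protocols. Probe sets with 1 gene in the platform annotation were used (34945), with symbols and chromosomes from a RefSeq gene table of GRCm38.p6. A gene needed 3 or more arrays above 3.32, the 25th percentile of the table, and 15493 passed.

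limma 3.58.1 (R 4.3.3) fitted 1 mean for each group to the 12 arrays together, with 8 residual degrees of freedom and 2.98 prior ones, and p-values were adjusted by Benjamini-Hochberg in each of 6 contrasts. The median standard error was 0.117 for a comparison of the lines under 1 antibody. Arrays give no depth, so their number limits the precision. Contrasts that use the same group share its chance values.

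The replication genes and the other lists were chosen with earlier results of these data known. The text names every tested replication gene, and from the other lists up to 4 genes per list and comparison with the smallest p among those called, together with Cdkn2a, Cdkn2b, Cdkn1a, Ccnd1, Rb1, Myc and Mki67. Promoters are shown for those of the 5 smallest p-values, averaged over antibodies and with an E2F word before the start, whose window lies mainly outside the annotated gene, which leaves out Cdc6. Another probe set above the dim level pointed the other way for 0 of 8 called genes under IgG and 4 of 19 under anti-PD-1 (Cdc45, Prim2, Rrm1 and, close to the dim level, Pola2). The fit was also run on simulated data, and the outcome is not given here. Alternatives were array weights, other filters, scalings and probe sets, a replicate block, tissue content as a covariate and leaving out arrays. Python 3.11.15 with matplotlib 3.10.9 drew the figures.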

Additional observations from a re-analysis of the deposited data

Results flagged for a closer look

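The Gins4 arrays of anti-PD-1 and IgG did not overlap in either line, in opposite directions, but the difference in resistant tumours was not called. It was 0.11 (SE 0.08, limma adjusted p = 0.896), with anti-PD-1 arrays at 8.40 beside an IgG array at 8.39. In resistant tumours all anti-PD-1 arrays exceeded all IgG arrays for 4 of 39 replication genes and 1366 of 15493 tested genes. In resistant tumours all anti-PD-1 arrays (8.40, 8.40 and 8.42) exceeded all IgG arrays (8.35, 8.39 and 8.15), whereas in parental tumours all anti-PD-1 arrays (7.43, 7.55 and 7.38) lay below all IgG arrays (7.87, 7.86 and 7.82). The interaction was 0.51 (SE 0.11), with a limma adjusted p = 0.132, which does not pass the threshold, and it was 0.47 without parental anti-PD-1 replicate 3.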

How the results depend on the processing

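The 39 differences between the lines stayed above 0 under median centring, quantile normalization and both tissue covariates, under each antibody and averaged. The replicate numbers gave deviations that correlated by over 0.1 in 14 of 18 same-numbered pairs (-0.21 to 0.64). Of the 12 arrays, 8 correlated best with an array of their own number. A block was to enter the main fit only if every pair exceeded 0.1, so the main fit has none. The labels do not say what the numbers mark, and a shared mouse or day was not tested. With a replicate block 33 replication genes were called for the lines under anti-PD-1, 18 under IgG and 32 averaged. It called 4 in parental tumours and 0 in resistant tumours and in the interaction. Under IgG the 12 calls between the lines became 25 with array weights, 19 with only the arrays of the groups compared and 24 with the fibroblast, endothelial and myeloid mean as a covariate, the last added after the data were seen. Leaving out 1 array gave 3 calls (without parental IgG replicate 3) to 21 (without parental anti-PD-1 replicate 3), with 5 without resistant IgG replicate 1 or replicate 2 and 19 without parental anti-PD-1 replicate 2. Under anti-PD-1 the 29 calls became 21 with the muscle level as a covariate, 23 with only the groups compared and 26 with array weights, and leaving out 1 array gave 22 to 36 calls between the lines, and averaged over antibodies 28 to 36. In parental tumours the 4 calls under anti-PD-1 became 0 with that covariate, 0 with the muscle level as a covariate, 0 with only the groups compared and 1 without both arrays that stood apart. Leaving out 1 array gave 0 to 7: 7 without parental anti-PD-1 replicate 2, 2 without its replicate 1, 1 without parental IgG replicate 1 and 0 without parental anti-PD-1 replicate 3, parental IgG replicates 2 and 3, any resistant anti-PD-1 array or resistant IgG replicate 1. None of the 4 genes stayed called in every one of these. The median of the replication genes in parental tumours was -0.03 with array weights, -0.08 with the covariate and -0.06 without both arrays, and that of the interaction was 0.13 without parental anti-PD-1 replicate 3 and 0.01 with the covariate. Pola2 reversed with its most variable probe set, which is close to the dim level, to -0.03 for the lines under anti-PD-1 and to -0.0783 averaged. Over all genes, leaving out 1 array gave 1273 to 3483 calls between the lines under IgG and 9 to 711 in parental tumours. Furthermore, the 2517 calls between the lines under IgG became 5152 with array weights, 5186 under anti-PD-1 became 3279 with the muscle covariate, and 542 in parental tumours became 918 with array weights, 135 and 145 with the covariates, 100 without both arrays and 0 with only the groups compared. Median centring raised the share of higher calls, to 79.6% from 64.5% under anti-PD-1, where it moved the median of all genes to 0.18 from 0.07 and that of the replication genes to 0.77, and to 70.4% from 55.0% under IgG. The causes of these changes were not tested. The covariates are highest on parental anti-PD-1 replicate 3, so tissue content cannot be told apart from other properties of that array. The resistant tumours and the interaction kept 0 replication genes called under every alternative run; the few arrays and the SE of single genes (0.08 to 0.33) limit what could be seen there. Of 5772 results for single replication genes 5443 kept direction and side of the threshold, 171 no longer passed, 156 newly passed and 2 reversed.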
